A study of Mus musculus with 7 samples.

Results

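Interferon-stimulated genes were followed in hematopoietic stem cells (HSCs) of mice that had all received polyinosinic-polycytidylic acid (pIpC), a synthetic double-stranded RNA that induces interferon. The set was a list of 44 genes known to be induced by interferons, and each was read from the probe set annotated to that gene alone, the one with the highest mean where a gene had several. Of the 44 genes, 40 were measured, out of 19938 genes on the arrays. Isg15, Gbp2 and Igtp had only probe sets that also name a second gene, and Ifi44 had no probe set named here. Only Irf1 had more than 1 probe set. In HSCs that had lost Cebpa, 6 of the 40 were higher (against 1.57% of all genes) and 0 lower (against 0.617%) than in controls at the thresholds of the study, with Irf7 and Isg20 at the top, while 27 did not pass an unadjusted p of 0.05.

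The HSCs were sorted as lineage-negative, Sca1+, c-Kit+, CD150+, CD48- bone marrow cells of young adult female C57BL/6 mice, killed at day 18 after pIpC. The methods of the study give repeated pIpC injections and count the days to analysis from the first. If the labels count likewise, the last injection was less than 18 days before. Cebpa Δ/Δ mice (4 arrays) carried Cebpa alleles flanked by loxP sites and the Mx1Cre transgene, and Cebpa fl/fl mice (3 arrays) carried the same alleles without Cre. The design counts as many mice as arrays, although the protocol speaks of triplicates. C/EBPα, the product of Cebpa, is a transcription factor needed for granulocyte development. Cre was driven by the promoter of Mx1, itself an interferon-stimulated gene, and only the Cebpa Δ/Δ mice carried it, so the transgene and the loss of Cebpa cannot be told apart. No array without pIpC was analysed here, so the size of the response to pIpC itself was not measured. Each array also held RNA of many cells, and fewer cells of a type and less RNA per cell cannot be told apart.

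Type I interferons bind the receptor made of IFNAR1 and IFNAR2, whose kinases activate the complex ISGF3, which contains STAT2 and IRF9. ISGF3 enters the nucleus and binds the interferon-stimulated response element (ISRE) in the promoters of a large group of genes, which encode sensors of viral RNA, enzymes that block viral replication and factors that amplify or damp the signal. In HSCs, acute interferon is known to end quiescence for a time.

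All values below are log2 of the deposited RMA intensity, and log2 fold changes are the Cebpa Δ/Δ mean minus the Cebpa fl/fl mean, with the standard error (SE) of limma. Beside limma's unadjusted p stands the exact two-sided permutation p over the 35 splits of the 7 arrays, which cannot go below 0.0286. Median intensities of the arrays lay between 46.2 and 50.4 on the linear scale. The arrays Δ/Δ 3 and fl/fl 1 stood farthest from the others, with mean correlations over all probe sets of 0.960 and 0.957, against 0.965 to 0.968 for the other 5. Cebpa itself measured 5.22 ± 0.08 (SD, n = 4) in Cebpa Δ/Δ and 5.64 ± 0.11 (SD, n = 3) in Cebpa fl/fl HSCs. The defining HSC markers Mecom, Hlf and Procr had log2 fold changes of -0.41, -0.51 and -0.26, none with an unadjusted p under 0.05. Of 13 markers of HSCs and of the sort, 2 were higher at an unadjusted p under 0.05 (against 4.4% of all genes) and 0 lower (against 3.08%). The 2 were Cd48, the antigen that the sort excluded, by 2.75, and Flt3, by 0.69. The other 11 all had log2 fold changes below 0, and the median of the 13 was -0.29, against -0.00 over all genes.

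Of the 40 interferon-stimulated genes, 6 were higher and 0 lower at the thresholds that the study used for these arrays, which were 1.5-fold and an unadjusted p of 0.05. Over all genes, 1.57% were higher and 0.617% were lower at these thresholds. At an unadjusted p under 0.05 alone, 13 of the 40 were higher (32.5%), against 4.4% of all genes, and 0 were lower, against 3.08%. All 4 Cebpa Δ/Δ arrays lay above all 3 Cebpa fl/fl arrays for 12 of the 40, against 3.51% of all genes, and below them for 0, against 2.46%. The log2 fold change was above 0 in 32 of the 40 (80%), against 49.7% of all genes. Its median was 0.22 over the interferon-stimulated genes and -0.00 over all genes, and it ranged from -0.34 to 1.09. After Benjamini-Hochberg adjustment over all genes, 0 of the 40 and 0% of all genes passed at 0.05. The smallest adjusted p was 0.393 among the 40 (Xaf1) and 0.207 among all genes, of which 1492 had an unadjusted p under 0.05. Statements of higher or lower below therefore rest on unadjusted p-values of limma. With Δ/Δ 3 and fl/fl 1, the arrays standing apart, both left out, 8 of the 40 were higher at an unadjusted p under 0.05, and 5 at the study's thresholds.

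**Figure D1:**
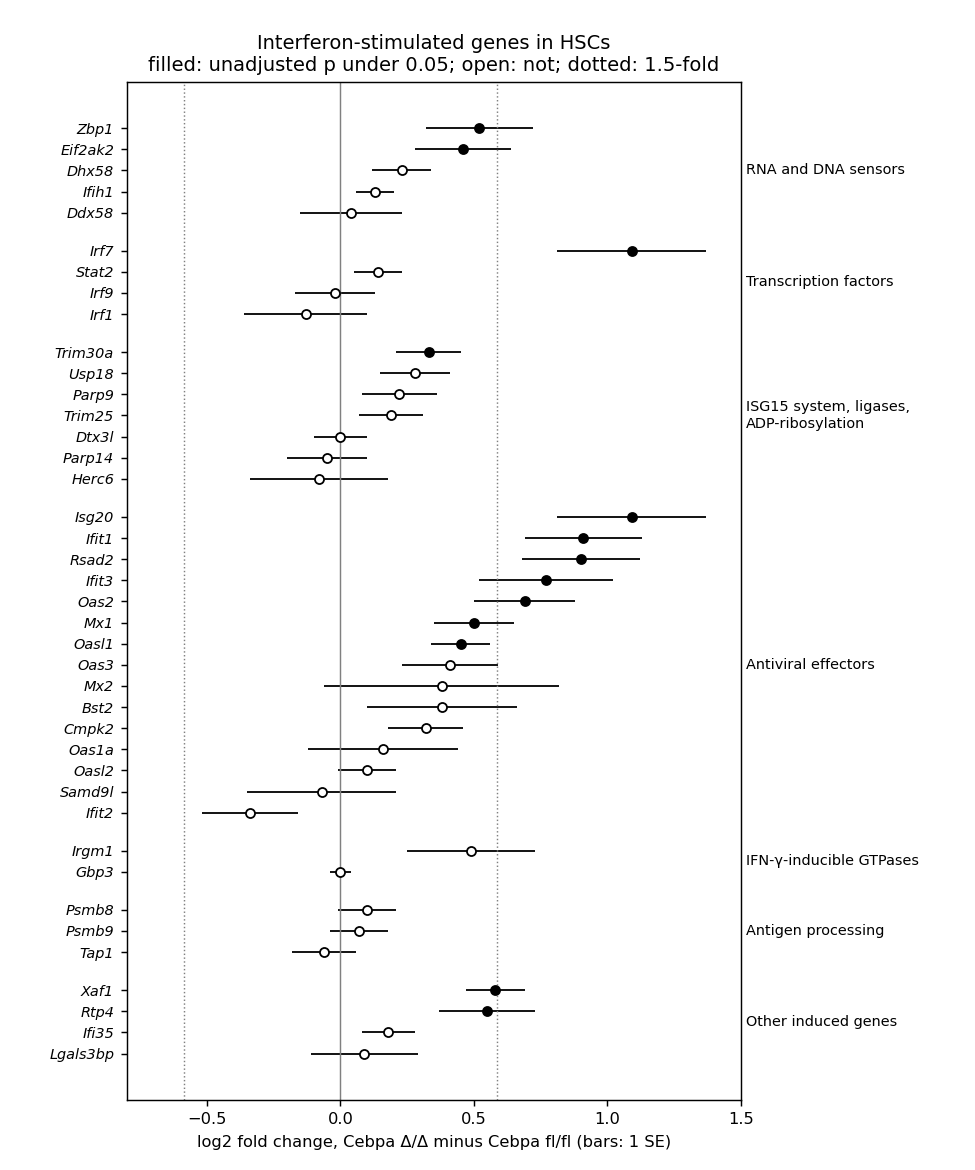
Log2 fold change, Cebpa Δ/Δ minus Cebpa fl/fl, of the 40 measured interferon-stimulated genes, grouped by role, with bars of 1 SE. Filled points mark the 13 genes with an unadjusted p under 0.05, all to the right of 0, and dotted lines mark 1.5-fold, which 6 of them exceed.

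Among the sensors of foreign nucleic acid, 2 of 5 were higher, against 4.4% of all genes. Zbp1, which recognises left-handed double helices and can trigger necroptosis, measured 8.05, 7.74, 8.39 and 7.53 in the 4 numbered Cebpa Δ/Δ arrays, against 7.34, 7.45 and 7.42 in the 3 Cebpa fl/fl arrays, in the order of their numbers as throughout. Its genotypes did not overlap, but the Cebpa Δ/Δ arrays were spread widely, and the log2 fold change was 0.52 (SE 0.20, limma p = 0.0383, exact permutation p = 0.0571). Zbp1 lost its call in 8 of 16 alternatives, among them those without Δ/Δ 1 or any 1 of the Cebpa fl/fl arrays, at 0.48 to 0.55. Eif2ak2 encodes PKR, the kinase that stops translation when it binds double-stranded RNA. It measured 8.43, 8.27, 8.16 and 8.09 in Cebpa Δ/Δ, against 7.38, 8.09 and 7.85 in Cebpa fl/fl HSCs. The log2 fold change was 0.46 (SE 0.18, limma p = 0.037, exact permutation p = 0.0571). Here Δ/Δ 4 and fl/fl 2 were level, and fl/fl 1 lay lowest. Eif2ak2 lost its call in 9 of 16 alternatives, among them those leaving out 1 array at a time for 5 of the 7 arrays, all but Δ/Δ 4 and fl/fl 2, at 0.26 to 0.50. The RNA helicases of the RIG-I family did not pass: Dhx58, Ifih1 and Ddx58, the gene of RIG-I itself, had log2 fold changes of 0.23, 0.13 and 0.04. Dhx58 was higher by 0.36 without fl/fl 3, and by 0.28 with array medians subtracted and all arrays kept.

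The transcription factors differed among themselves. Irf7, the factor that amplifies transcription of the type I interferon genes, measured 8.48, 7.82, 9.02 and 7.97 in Cebpa Δ/Δ arrays, against 7.28, 7.16 and 7.24 in Cebpa fl/fl arrays. Every Cebpa Δ/Δ array was above every Cebpa fl/fl array, and the Cebpa fl/fl arrays lay close together while Δ/Δ 3 and Δ/Δ 1 were highest. The means were 8.32 ± 0.54 (SD, n = 4) in Cebpa Δ/Δ and 7.23 ± 0.06 (SD, n = 3) in Cebpa fl/fl HSCs, a fold of 2.14. The log2 fold change of Irf7 was 1.09 (SE 0.28, limma p = 0.00733, exact permutation p = 0.0571, adjusted p = 0.520).

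Stat2 and Irf9, which belong to ISGF3, did not move with Irf7. Stat2 measured 7.92, 7.94, 7.92 and 8.06 in Cebpa Δ/Δ, against 7.62, 7.92 and 7.92 in Cebpa fl/fl HSCs, a log2 fold change of 0.14 (SE 0.09, limma p = 0.169, exact permutation p = 0.171). Irf9, the subunit of ISGF3 that contacts DNA, measured 7.98, 7.83, 8.15 and 7.98 in Cebpa Δ/Δ and 8.18, 7.64 and 8.18 in Cebpa fl/fl HSCs. Its log2 fold change was -0.02, with a 95% interval from -0.38 to 0.35, and the Cebpa Δ/Δ arrays lay within the Cebpa fl/fl range. Irf1, a factor induced more by interferon gamma, had a log2 fold change of -0.13 (SE 0.23) and turned to 0.11 without fl/fl 3.

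The antiviral effectors held 7 of the 13 genes that were higher. They were 7 of the 15 effectors measured, against 4.4% of all genes. Of the 15, 5 were past the study's thresholds (against 1.57% of all genes), and 0 were lower (against 3.08% at an unadjusted p under 0.05). Their median log2 fold change was 0.41. Isg20, an exonuclease that degrades single-stranded RNA, measured 9.06, 8.12, 8.53 and 8.25 in Cebpa Δ/Δ arrays, against 7.40, 7.82 and 6.97 in Cebpa fl/fl arrays. The genotypes did not overlap, Δ/Δ 1 being highest and fl/fl 3 lowest, and the log2 fold change was 1.09 (SE 0.28, limma p = 0.00719, exact permutation p = 0.0286). This is a fold of 2.13. With Δ/Δ 3 and fl/fl 1 both left out, Isg20 had 1.08 and no longer passed.

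Of the Ifit family, whose proteins bind viral RNA ends, Ifit1 measured 6.83, 7.46, 7.28 and 6.68 in Cebpa Δ/Δ, against 5.89, 6.30 and 6.25 in Cebpa fl/fl HSCs. All Cebpa Δ/Δ arrays were above all Cebpa fl/fl arrays, with a log2 fold change of 0.91 (SE 0.22, limma p = 0.00485, exact permutation p = 0.0286). With Δ/Δ 3 and fl/fl 1 both left out, Ifit1 had 0.71 and no longer passed. Ifit3, which binds IFIT1 and stabilises it in human cells, measured 6.39, 6.92, 6.77 and 6.39 in Cebpa Δ/Δ and 5.56, 5.58 and 6.39 in Cebpa fl/fl HSCs. Its log2 fold change was 0.77 (SE 0.25, limma p = 0.0186, exact permutation p = 0.0571), and fl/fl 3 reached the lower Cebpa Δ/Δ arrays. The call on Ifit3 ended without fl/fl 1, at 0.63, and without fl/fl 2, at 0.64. Ifit2, whose gene lies next to Ifit3 on chromosome 19, went the other way, with a log2 fold change of -0.34 (SE 0.18, limma p = 0.0975, exact permutation p = 0.2). It measured 6.53, 7.02, 6.90 and 6.36 in Cebpa Δ/Δ and 7.05, 6.89 and 7.20 in Cebpa fl/fl HSCs, so the genotypes overlapped. Without Δ/Δ 2, Ifit2 had -0.45 and was lower at an unadjusted limma p under 0.05.

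Rsad2 encodes viperin, which makes a nucleotide that ends viral RNA chains. It measured 7.42, 7.25, 7.95 and 6.9995 in Cebpa Δ/Δ, against 6.62, 6.42 and 6.46 in Cebpa fl/fl HSCs. The genotypes were clearly apart, and the log2 fold change was 0.90 (SE 0.22, limma p = 0.00501, exact permutation p = 0.0571). Its direct neighbour on chromosome 12, Cmpk2, encodes a mitochondrial nucleotide kinase and had a log2 fold change of 0.32 (SE 0.14, limma p = 0.0617, exact permutation p = 0.0857). Cmpk2 passed in 4 of 16 alternatives.

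Oas2, 1 of the oligoadenylate synthetases that switch on RNase L, measured 8.81, 9.05, 8.70 and 9.17 in Cebpa Δ/Δ, against 7.84, 8.51 and 8.39 in Cebpa fl/fl HSCs. The genotypes did not overlap, and the log2 fold change was 0.69 (SE 0.19, limma p = 0.0106, exact permutation p = 0.0286). Its neighbour Oas3 did not overlap either, at 7.16, 7.42, 7.10 and 7.10 in Cebpa Δ/Δ and 6.37, 6.91 and 7.08 in Cebpa fl/fl HSCs. Oas3 did not pass by limma, with a log2 fold change of 0.41 (SE 0.18, limma p = 0.0606, exact permutation p = 0.0286). It passed in 3 of 16 alternatives. Oasl1, which in the mouse holds back translation of Irf7 mRNA, measured 6.97, 6.78, 7.06 and 6.67 in Cebpa Δ/Δ, against 6.28, 6.52 and 6.45 in Cebpa fl/fl HSCs. This was a small difference without overlap, a log2 fold change of 0.45 (SE 0.11, limma p = 0.00575, exact permutation p = 0.0571). Oasl2, directly beside Oasl1 on chromosome 5, had 0.10 and Oas1a had 0.16, neither past the test.

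Mx1, a GTPase that blocks influenza virus and is defective in C57BL/6 mice, is also the gene whose promoter drives Cre. It measured 4.70, 4.36, 4.23 and 4.60 in Cebpa Δ/Δ, against 4.02, 4.16 and 3.72 in Cebpa fl/fl HSCs. The Cebpa Δ/Δ arrays were all higher, with a log2 fold change of 0.50 (SE 0.15, limma p = 0.014, exact permutation p = 0.0571). Mx1 and Mx2 were the 2 interferon-stimulated genes below the median level of all genes, 5.86. Mx2 had a log2 fold change of 0.38 with an SE of 0.44. Bst2 (tetherin, which holds budding virus at the cell surface) had 0.38 and Samd9l -0.07, and neither passed. Bst2 was lowest in fl/fl 1, at 7.99, but reached 9.16 in fl/fl 2, as high as the Cebpa Δ/Δ arrays.

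**Figure D2:**
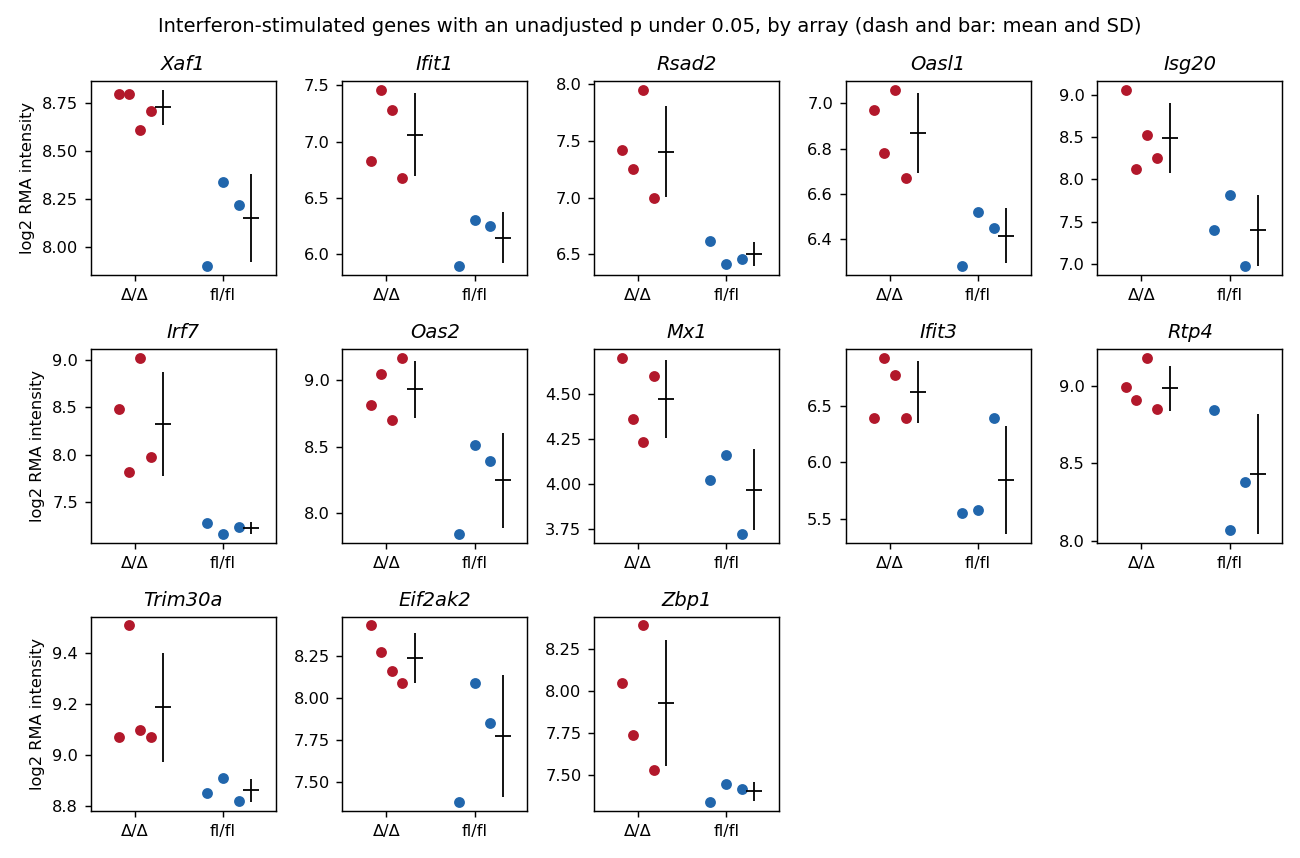
Log2 RMA intensity of the 13 interferon-stimulated genes with an unadjusted p under 0.05, 1 panel per gene in the order of p, with a point per array for Cebpa Δ/Δ (left, 4 arrays) and Cebpa fl/fl (right, 3 arrays) and the mean with its SD. The genotypes overlap in Ifit3 and Eif2ak2 and in none of the other 11 panels, and the axes differ between panels.

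The promoters were searched for the ISRE, the sequence that ISGF3 and the IRF factors bind. It was searched as GAAANNGAAA on either strand, from 250 bases before to 50 bases after the start site of RefSeq (GRCm38.p6), and overlapping matches were counted. A window was found for 35 of the 44 genes, and 16 of them (45.7%) held a match, against 1079 of 27025 genes (3.99%). Of the 9 genes with a window among the 13 that were higher, 5 held a match (55.6%), and 8 of 22 (36.4%) among the other measured genes. Each stretch below is read along the strand of its gene, with 10 bases on either side and the match in capitals. The first 4 belong to genes that were higher in Cebpa Δ/Δ HSCs:
Ifit1, chr19:34640775-34640823, plus strand: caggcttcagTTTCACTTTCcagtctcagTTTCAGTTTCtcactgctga
Ifit3, chr19:34583363-34583426, plus strand: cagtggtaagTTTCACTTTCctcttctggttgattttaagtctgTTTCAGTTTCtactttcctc
Rsad2, chr12:26456553-26456582, minus strand: ctggtccaacTTTCATTTTCagaaaacaga
Trim30a, chr7:104465210-104465239, minus strand: agttctttagTTTCTTTTTCtcagttcctg

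The next 4 belong to genes with the element that did not pass the test, and are shown because the same letters stood before genes that did and did not differ:
Stat2, chr10:128270266-128270295, plus strand: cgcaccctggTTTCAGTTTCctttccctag
Oas3, chr5:120777715-120777744, minus strand: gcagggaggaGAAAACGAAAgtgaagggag
Bst2, chr8:71537577-71537612, minus strand: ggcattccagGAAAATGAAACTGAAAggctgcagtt
Irgm1, chr11:48871425-48871460, minus strand: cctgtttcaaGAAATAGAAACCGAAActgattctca

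Ifit1 and Ifit3 each had 2 separate matches, while Bst2 and Irgm1 had 2 that overlapped. The gamma-activated site, searched as TTCNNNGAA, was found in 9 of 35 windows (25.7%), against 9.55% of all. These matches are letters in a window and were not measured as binding.

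Of the genes of the ISG15 system, the ubiquitin ligases and ADP-ribosylation, 1 of 7 was higher (against 4.4% of all genes), a single gene in a short list. Isg15, the ubiquitin-like protein itself, was read only together with a second gene and has no value here. Usp18, which takes ISG15 off proteins and damps the interferon receptor, measured 7.40, 7.10, 7.37 and 6.98 in Cebpa Δ/Δ, against 7.04, 6.9993 and 6.75 in Cebpa fl/fl HSCs. Only Δ/Δ 4 fell within the Cebpa fl/fl range, and the log2 fold change was 0.28 (SE 0.13, limma p = 0.0699, exact permutation p = 0.171). Without Δ/Δ 4, Usp18 was higher by 0.36.

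Trim30a, a TRIM protein known to restrain Toll-like receptor signalling in mouse cells, measured 9.07, 9.51, 9.10 and 9.07 in Cebpa Δ/Δ and 8.85, 8.91 and 8.82 in Cebpa fl/fl HSCs. The genotypes did not overlap, Δ/Δ 2 stood above the rest, and the log2 fold change was 0.33 (SE 0.12, limma p = 0.0314, exact permutation p = 0.0286). It no longer passed when any 1 of the Cebpa fl/fl arrays was left out, at 0.31 to 0.36. Trim25, the ligase that activates RIG-I, had 0.19, Parp9 0.22, Dtx3l 0.00, Parp14 -0.05 and Herc6 -0.08. DTX3L and PARP9 act as a complex, their genes lie side by side with Parp14 on chromosome 16, and none of the 3 passed.

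The genes of the interferon gamma arm and of antigen processing did not pass the test. Irgm1, a GTPase of vacuole defence, had the highest log2 fold change of these, 0.49 (SE 0.24, limma p = 0.0809, exact permutation p = 0.143), and was higher by 0.75 without fl/fl 1, the only Cebpa fl/fl array within the Cebpa Δ/Δ range. Gbp3 had the same deposited value on all 7 arrays, 7.51 on the log2 scale, and so holds no information on the genotypes. It was 1 of 100 genes with such constant values, and 63.6% of all genes had the same value on at least 2 arrays. Related genes of the second list below were mixed. By the unadjusted p, Gbp5 (0.56) and Iigp1 (0.49) were higher and Gbp11 (-0.31) was lower, while Gbp4, Gbp7, Gbp8 and Gbp9 did not pass. The immunoproteasome subunits Psmb8 and Psmb9 had 0.10 and 0.07, and Tap1, the peptide transporter between them, had -0.06. The 95% interval for Tap1 ran from -0.34 to 0.21.

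Xaf1, an interferon-induced antagonist of the apoptosis inhibitor XIAP, had the smallest p of all 40 genes. It measured 8.80, 8.80, 8.61 and 8.71 in Cebpa Δ/Δ, against 7.90, 8.34 and 8.22 in Cebpa fl/fl HSCs. The Cebpa Δ/Δ arrays were tight and all above the Cebpa fl/fl arrays, and the log2 fold change was 0.58 (SE 0.11, limma p = 0.00191, exact permutation p = 0.0286, adjusted p = 0.393). An exact two-sided permutation test over the 35 splits of the arrays gave the smallest p it allows, 0.0286.

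Rtp4, a chaperone of receptors on their way to the surface, measured 8.99, 8.91, 9.18 and 8.85 in Cebpa Δ/Δ and 8.84, 8.07 and 8.38 in Cebpa fl/fl HSCs. Fl/fl 1 came within 0.01 of the lowest Cebpa Δ/Δ array, and the log2 fold change was 0.55 (SE 0.18, limma p = 0.023, exact permutation p = 0.0286). When any of 4 arrays was left out (Δ/Δ 1, Δ/Δ 3, fl/fl 2, and fl/fl 3) Rtp4 no longer passed, at log2 fold changes from 0.37 to 0.54. Ifi35 and the secreted Lgals3bp had 0.18 and 0.09.

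Of the 13 genes that were higher, 6 reached the smallest exact permutation p (Xaf1, Ifit1, Isg20, Oas2, Rtp4 and Trim30a), and the other 7 had the next value, 0.0571. By limma, 8 of the 13 kept an unadjusted p under 0.05 with each array left out in turn. The other 5 were Ifit3, Rtp4, Eif2ak2, Zbp1 and Trim30a. Under every alternative of the processing in which the gene was tested, 6 kept it, namely Irf7, Rsad2, Xaf1, Oasl1, Oas2 and Mx1. Mx1 was tested in 15 of the 16 alternatives, since it fell out when only genes above the median level were kept, and the other 5 in all 16. Isg20 and Ifit1 lost their call in 1 alternative, that without Δ/Δ 3 and fl/fl 1, at 1.08 and 0.71. The log2 fold changes of the 6 genes under these alternatives ranged from 0.86 to 1.26 for Irf7, from 0.72 to 1.04 for Rsad2 and from 0.45 to 0.67 for Xaf1. They ranged from 0.48 to 0.82 for Oas2, from 0.34 to 0.61 for Mx1 and from 0.32 to 0.52 for Oasl1.

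The highest Cebpa Δ/Δ array was not the same for all. Among the 13 genes it was Δ/Δ 3 for 5 (Rsad2, Oasl1, Irf7, Rtp4 and Zbp1), Δ/Δ 1 for 4 (Xaf1, Mx1, Isg20 and Eif2ak2), Δ/Δ 2 for 3 (Ifit1, Ifit3 and Trim30a) and Δ/Δ 4 for 1 (Oas2). Among the 39 genes with a single lowest array, it was fl/fl 1 for 15, fl/fl 2 for 10 and fl/fl 3 for 5. Of all genes, 17.7%, 14.3% and 14.1% were lowest in these same arrays. Ifit1 and Ifit3 thus shared their highest array, while Irf7 and Rsad2 shared another.

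**Figure D3:**
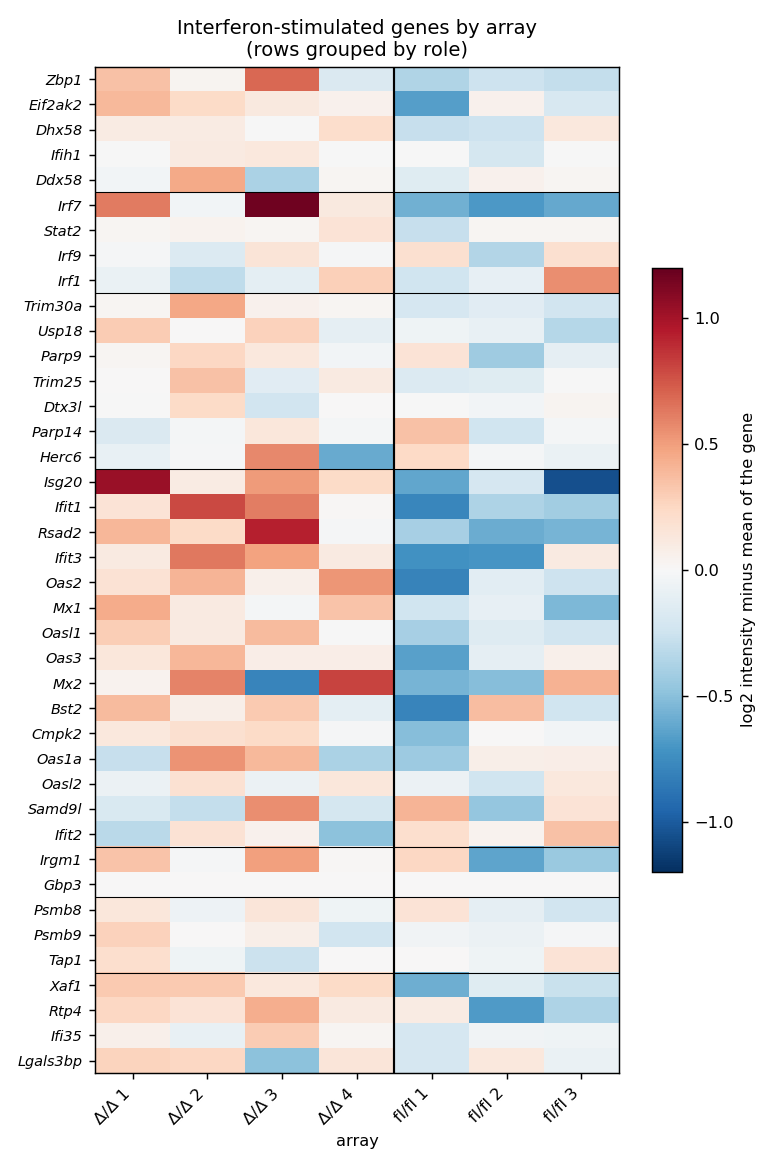
Log2 intensity minus the mean of the gene over 7 arrays, for the 40 interferon-stimulated genes (rows, by role) in the 4 Cebpa Δ/Δ arrays (left of the line) and the 3 Cebpa fl/fl arrays. Red is above and blue below the mean, and the darkest red cells are Irf7 in Δ/Δ 3 and Isg20 in Δ/Δ 1.

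A list score, the mean over genes of the log2 value minus the mean of that gene, was 0.14, 0.16, 0.18 and 0.03 for the 40 genes in the 4 Cebpa Δ/Δ arrays and -0.22, -0.19 and -0.11 in the 3 Cebpa fl/fl arrays. The 27 genes other than those 13 scored 0.04, 0.11, 0.06 and -0.01 in Cebpa Δ/Δ, against -0.10, -0.13 and 0.02 in Cebpa fl/fl arrays, where the genotypes overlapped.

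Markers of other cells moved with the genotype too. At the study's thresholds, 1.57% of all genes were higher and 0.617% lower. Of 11 macrophage markers, 6 were higher at the study's thresholds, among them C1qc (2.02) and C1qb (1.81), complement subunits of tissue macrophages, while Marco and Csf1r had log2 fold changes of 0.03 and 0.21. The macrophage score was 0.91, -0.07, 0.65 and 0.11 in Cebpa Δ/Δ, against -0.57, -0.47 and -0.55 in Cebpa fl/fl arrays. Erythroid markers were higher for 12 of 13 at these thresholds, with scores from 0.41 to 1.41 in Cebpa Δ/Δ and from -1.46 to -0.56 in Cebpa fl/fl arrays. T and NK cell markers were higher for 4 of 14, with scores from 0.01 to 0.50 in Cebpa Δ/Δ and from -0.48 to -0.19 in Cebpa fl/fl arrays. Dendritic cell markers, which include Bst2, were higher at the study's thresholds for 1 of 10, and B cell markers for 0 of 8. The 1 dendritic marker was Flt3 (0.69), listed also with the markers of HSCs and of the sort, and not Bst2. By an unadjusted p under 0.05 alone, which 4.4% of all genes passed as higher, the counts of higher markers were larger for 2 lists. They were 3 of 10 dendritic and 6 of 14 T and NK cell markers, with 6 of 11 macrophage, 12 of 13 erythroid and 0 of 8 B cell markers unchanged. Mature neutrophil markers were lower for 10 of 12, with scores from -1.74 to -0.81 in Cebpa Δ/Δ and from 0.94 to 2.43 in Cebpa fl/fl arrays.

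The 13 interferon-stimulated genes scored 0.35, 0.27, 0.43 and 0.12 in Cebpa Δ/Δ and -0.48, -0.31 and -0.37 in Cebpa fl/fl arrays, where the choice of the genes fixes the direction between genotypes. Among the Cebpa Δ/Δ arrays, the T and NK cell score (0.32, 0.19, 0.50 and 0.01) had the same order as these genes. Macrophage and erythroid scores were highest in Δ/Δ 1 and next in Δ/Δ 3. The score of the markers of HSCs and of the sort was -0.09, 0.30, -0.29 and 0.11 in Cebpa Δ/Δ, lowest in Δ/Δ 3. It was -0.14, 0.04 and 0.07 in Cebpa fl/fl arrays. Dendritic cell scores were 0.08, 0.09, 0.25 and 0.06 in Cebpa Δ/Δ and lay between -0.25 and -0.12 in Cebpa fl/fl arrays. Among the Cebpa Δ/Δ arrays they had the same order as the score of all 40 genes (0.14, 0.16, 0.18 and 0.03). Bst2 belongs to both lists. Without Δ/Δ 1, 10 of the 40 genes were higher at an unadjusted p under 0.05, and without Δ/Δ 3, 12. The part of these other cells in the result was not tested.

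**Figure D4:**
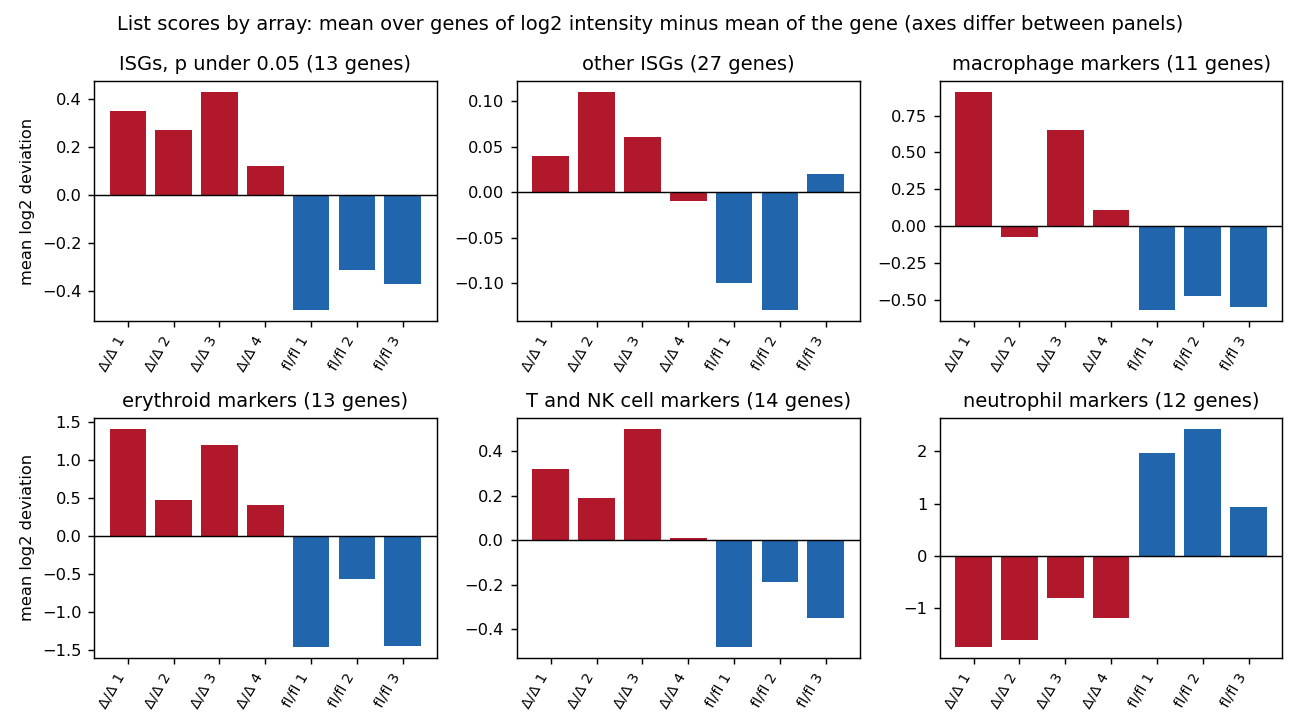
List scores by array, as the mean over genes of the log2 intensity minus the mean of the gene, in Cebpa Δ/Δ (4 bars, left) and Cebpa fl/fl arrays (3 bars, right), on axes that differ between panels. The erythroid and the T and NK cell markers are above 0 in every Cebpa Δ/Δ array, the macrophage markers in 3 of 4, and the neutrophil markers in none, while the direction of the 13 interferon-stimulated genes is fixed by their choice.

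Other genes of the interferon pathway were counted at an unadjusted p under 0.05, which 4.4% of all genes passed as higher and 3.08% as lower. Of 16 interferon genes measured, 0 were higher and 1 was lower, Ifnk (log2 fold change -0.59, limma p = 0.0362, exact permutation p = 0.0571), which was dim throughout. Ifng, the gene of interferon gamma, had a log2 fold change of 0.16 (limma p = 0.163, exact permutation p = 0.2). Of 9 receptor chains and kinases, Ifngr1 alone was higher. This ligand-binding chain of the interferon gamma receptor measured 8.84, 8.75, 8.60 and 8.52 in Cebpa Δ/Δ, against 8.04, 7.99 and 8.15 in Cebpa fl/fl HSCs. The genotypes did not overlap, and the log2 fold change was 0.62 (SE 0.09, limma p = 0.000381, exact permutation p = 0.0286, adjusted p = 0.276). The type I receptor chains Ifnar1 and Ifnar2 had -0.08 and 0.17, neither past the test.

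Among 5 further STAT and IRF factors 0 passed, and among 10 genes of nucleic acid sensing 1 was higher, Tlr9 (0.31, limma p = 0.0237, exact permutation p = 0.0571), an endosomal receptor for DNA. Of 8 feedback inhibitors, Ptpn1, a phosphatase that acts on JAK2 and TYK2, was higher by 0.37 (SE 0.09, limma p = 0.00411, exact permutation p = 0.0286). Of 10 further genes of MHC class I presentation, the proteasome activator Psme2 was higher by 0.51 (limma p = 0.0236, exact permutation p = 0.0857). Nlrc5, the transactivator of MHC class I genes, measured 9.28, 8.80, 8.79 and 9.51 in Cebpa Δ/Δ, against 10.11, 9.44 and 10.08 in Cebpa fl/fl HSCs. This gave a log2 fold change of -0.78 (SE 0.25, limma p = 0.0184, exact permutation p = 0.0857). Only Δ/Δ 4 reached the Cebpa fl/fl range.

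A second list held interferon-stimulated genes outside the 44. Of 53 measured, 8 were higher (against 4.4% of all genes) and 3 lower (against 3.08%) by the unadjusted p alone. At the study's thresholds 3 were higher (against 1.57%) and 0 lower (against 0.617%), and the median log2 fold change was 0.04. The 3 were Ube2l6, Ifi205 and Ifi27l2a, the last named after its value was seen. Ifi27l2a measured 8.90, 7.58, 9.91 and 7.56 in Cebpa Δ/Δ, against 6.47, 6.99 and 7.26 in Cebpa fl/fl HSCs. Its log2 fold change was 1.58 (SE 0.62, limma p = 0.0394, exact permutation p = 0.0857). Ube2l6, the enzyme that conjugates ISG15, measured 8.84, 8.68, 8.41 and 8.24 in Cebpa Δ/Δ, against 7.90, 7.51 and 7.44 in Cebpa fl/fl HSCs. It was apart between genotypes, with a log2 fold change of 0.93 (SE 0.18, limma p = 0.00165, exact permutation p = 0.0286). Uba7, which activates ISG15 in the step before, had -0.32 (limma p = 0.0303, exact permutation p = 0.0571) and was named after its value was seen, as were Gbp11 (-0.31) and Slfn9 (-0.45), the other 2 that were lower.

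Ifi205, of the interferon-inducible p200 family, measured 6.62, 4.81, 5.99 and 4.33 in Cebpa Δ/Δ, against 2.94, 2.92 and 3.49 in Cebpa fl/fl HSCs. It was highest in Δ/Δ 1 and Δ/Δ 3, as were the macrophage and erythroid scores, and its log2 fold change was 2.32 (SE 0.57, limma p = 0.00534, exact permutation p = 0.0571). All Cebpa fl/fl values of Ifi205 lay below the percentile 25 of all values, 4.12, so the size of this change rests on a dim baseline. Gbp5, a guanylate-binding protein of inflammasome activation, was higher by 0.56 (SE 0.14, limma p = 0.00699, exact permutation p = 0.0286), and Ly6e, a surface protein that restricts virus entry, by 0.21 (SE 0.05, limma p = 0.00693, exact permutation p = 0.0286).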

How the data were processed

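RNA of sorted HSCs was amplified (NuGEN) and measured on Affymetrix Mouse Gene ST microarrays, 4 of Cebpa Δ/Δ and 3 of Cebpa fl/fl mice. The authors summarised probe intensity by RMA (Robust Multichip Average), a procedure that equalises the distributions of the arrays, so that a shift in total RNA per cell is not seen. Partek Genomics Suite is named for this in the methods, and affy besides RMA in the submitters' processing notes. The deposited intensities were linear, from 1.51 to 9840, whereas log2 values had been assumed in the design, so log2 was taken here, with no pseudocount added. Precision is limited by the number of arrays.

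The annotation gave 21789 of 35556 probe sets 1 symbol, 1621 several and 12146 none. Symbols were updated through the Entrez number for 21698 probe sets (RefSeq, GRCm38.p6), and for 999 genes with several probe sets the one with the highest mean was used, which left 19938 genes. Ifit3, Oas1a and Trim30a have close paralogues whose transcripts their probe sets may also bind. The comparison used limma 3.58.1 under R 4.3.3 (lmFit, then eBayes) on all 7 arrays with no covariate, and p-values were adjusted over all genes by Benjamini-Hochberg. The thresholds of the study were applied to limma's p, because no test is named for the arrays. Single values were also compared by an exact two-sided permutation test. Intervals are at 95%. The fit was tested on simulated data. Promoter windows came from RefSeq and were searched for letters only.

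The 44 genes, the other lists and the roles were chosen with earlier results of these data known. All measured genes were to be given by role, with the value of every array for those with an unadjusted p under 0.05 and for Irf9, Stat2, Irf7, Mx1, Isg15 and Usp18. From the other interferon lists, the genes with an unadjusted p under 0.05 were named, at most 4 per list, together with Ifnar1, Ifnar2, Ifngr1 and Ifng. Values of other single arrays, and genes that the rule does not cover, were picked with their values in view. Alternatives were array medians subtracted, cyclic loess, low values raised to the percentile 25, only genes above the median level, the mean of all probe sets of a gene, no moderation of the variance, array weights, a replicate block, each array left out, and Δ/Δ 3 and fl/fl 1 both left out.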

Additional observations from a re-analysis of the deposited data

Results flagged for a closer look

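In 4 of 39 genes, 1 Cebpa Δ/Δ array lay far from the other 3, with a gap to its nearest neighbour above Dixon's critical share of the range of the 4 arrays, which chance gives in about 1 of 20 groups. This gap, as a share of the range, was 0.927 for Trim30a, where Δ/Δ 2 was high (9.51, against 9.07 to 9.10 in the other Cebpa Δ/Δ arrays). It was 0.883 for Samd9l, where Δ/Δ 3 was high (9.64), and 0.882 for Stat2, where Δ/Δ 4 was high (8.06). It was 0.843 for Lgals3bp, where Δ/Δ 3 was low (9.73), and without that array Lgals3bp was higher in Cebpa Δ/Δ HSCs by 0.27 at an unadjusted limma p under 0.05. The array that stood apart was thus Δ/Δ 3 in 2 genes, high in 1 and low in the other.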

How the results depend on the processing

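Over 16 alternatives the median log2 fold change stayed between 0.16 and 0.27. The number above 0 was 32 to 36 of 40 genes, and 30 of the 38 left when only genes above the median level were kept, and the number higher at the study's thresholds between 5 and 9, while 0 passed the adjusted threshold in each. The number higher at an unadjusted p under 0.05 was 8 with Δ/Δ 3 and fl/fl 1 both left out and lay between 10 and 17 otherwise. The number lower at an unadjusted p under 0.05 was 0 to 1 with single arrays left out, the 1 being Ifit2, and the number with all Cebpa Δ/Δ arrays below all Cebpa fl/fl arrays was 0 to 2, the 2 being Ifit2 and Irf9 without fl/fl 2. Subtracting array medians moved the median of all genes by 0.045.

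Of 638 values of single genes, 564 kept direction and side of the threshold, 31 lost it, 19 gained it and 24 changed sign, all in 10 genes with an unadjusted p over 0.05. With single arrays left out, the log2 fold change ran from -0.11 to 0.17 for Ddx58, -0.07 to 0.08 for Dtx3l, -0.28 to 0.11 for Herc6, -0.29 to 0.11 for Irf1, -0.20 to 0.08 for Irf9, -0.01 to 0.31 for Oas1a, -0.18 to 0.11 for Parp14, -0.01 to 0.16 for Psmb9, -0.31 to 0.12 for Samd9l and -0.14 to 0.01 for Tap1. The cause was not tested. With array medians subtracted Irf9 had 0.03, with cyclic loess Dtx3l had -0.01, and with both arrays left out Irf9 had 0.02, Oas1a -0.12 and Parp14 0.06.

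The labels number the arrays within each genotype and do not say whether the numbers pair mice. Deviations of same-numbered arrays from their genotype means correlated at -0.021, 0.102 and -0.185. Those of arrays with different numbers correlated at -0.200 to 0.333, the highest being Δ/Δ 4 with fl/fl 3. With so few arrays, these correlations cannot decide whether arrays were paired. With a replicate block over arrays 1 to 3, 14 genes were higher at an unadjusted p under 0.05, 8 at the study's thresholds, the median was 0.23 and Herc6 turned to 0.11. Of the 13 higher genes, 5 lost their call when 1 array was left out.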
